A study of Caenorhabditis elegans with 6 samples.

Results

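The sites described here were found by all 3 ChIP replicates of HAM-1::GFP but met no region of the authors' combined list. They were chosen by position. The nuclear regions of the 3 replicate lists were pooled, regions that overlapped by at least 1 bp were merged into stretches, and a stretch was kept if it held a region from each list and touched no combined region. Of 32230 stretches, 12855 held a region from each list. Of these, 5426 met no combined region (42.2%, 95% Wilson interval 41.4 to 43.1%) and are called outside sites below. The other 7429 met the combined list and are called combined sites. Outside sites made up 16.8% of all stretches. The rule places no minimum on strength, so a weak region counted as much as a strong one.

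Chromatin came from L4 larvae, hermaphrodites of strain OP102 grown at 20 °C on HB101 bacteria. These worms carry unc-119 (ed3) and the transgene wgIs102, which holds ham-1::TY1 EGFP FLAG and an unc-119(+) rescue, so that every library shares this genotype. The samples were 3 ChIP libraries made with antibody against GFP and 3 input libraries, and the input libraries were not analysed here. No label says that the replicates came from separate cultures, so the spread between lists may be technical.

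HAM-1 is a winged-helix protein of Caenorhabditis elegans that acts in asymmetric divisions of neuroblasts, where the daughter cells differ in size and fate. In chromatin immunoprecipitation of a tagged factor from whole worms, a site used in few cells gives a weak signal, and fewer bound cells and weaker binding per cell cannot be told apart. A reproducibility filter such as IDR compares the rank of each region between replicates and drops regions below a set level of agreement. The deposited lists name SPP, a peak caller, with IDR as their source, but how the combined list was derived is not given in the sources used here. All coordinates are on WormBase build WS220 as the files give them. Genes and base sequence at the sites were not analysed here, since no genome or gene table of that build was used.

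Each region carries a number in its name, which ran once through each list and rose as the deposited score fell (Spearman rho across regions -0.995, -0.997 and -0.993 in replicates 1, 2 and 3). This number is called the place, with place 1 the strongest. The lists held 29972, 29980 and 29599 nuclear regions in replicates 1, 2 and 3. They give no read counts, so the depth behind a place is unknown. The combined list rests on the same libraries, so the places of outside sites are tied to the rule that chose them. The agreement of the lists in position may be tied to it as well. Neighbouring stretches are not independent. The contrasts between outside and combined sites are therefore descriptions without a p-value, and the Wilson intervals cover counting error only.

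Outside sites lay in the lower part of every list. For each stretch the best place in a list was taken, which is the place of its strongest region there. The median best place of outside sites was 14587.5 in replicate 1, 14685.5 in replicate 2 and 14820.5 in replicate 3, a mean of 14698 ± 117 (SD, n = 3 lists). Combined sites had medians of 4086, 4135 and 4322, a mean of 4181 ± 125 (SD, n = 3 lists). This gap follows from the rule, since the combined list rests on the same libraries. The quartiles of outside sites ran from 10341 to 20102 in replicate 1, 10333 to 20108 in replicate 2 and 10127 to 20650 in replicate 3. Those of combined sites ran from 1958 to 6901, 1969 to 7014 and 2048 to 7692, so the ranges between quartiles did not overlap in any list. The full ranges did overlap, since combined sites reached place 29824, 29958 and 29392 in the 3 lists.

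**Figure D1:**
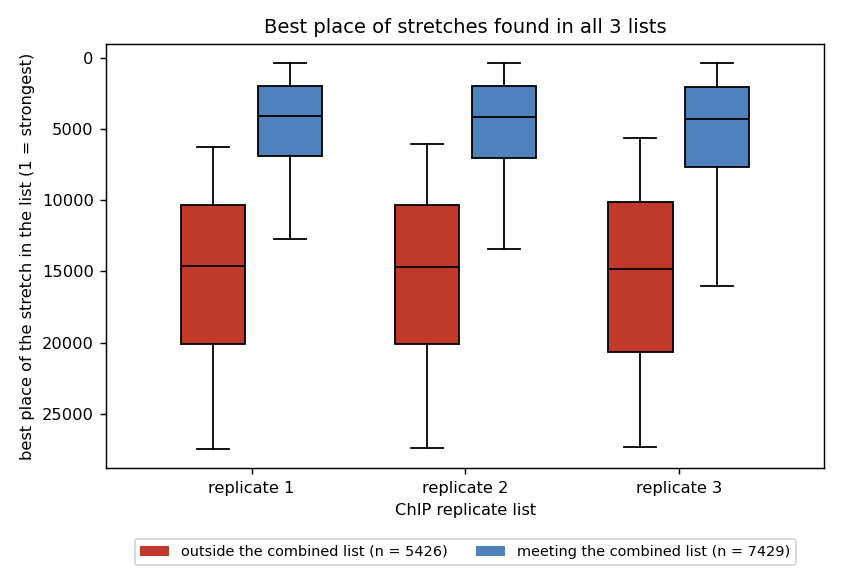
Best place of each stretch in the 3 replicate lists (y axis, place 1 strongest, drawn at the top), for outside sites (red) and combined sites (blue). Boxes are quartiles with the median and whiskers run from the 5th to the 95th percentile over stretches; the median of outside sites is 14587.5 to 14820.5 in every list, against 4086 to 4322 for combined sites.

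Since the place follows the score, counts at the highest score largely restate the places and are not a second measure. The highest score of a list is shared by many regions, 6368 in replicate 1, 5292 in replicate 2 and 7157 in replicate 3. A region at this score was held by 291 outside sites in replicate 1 (5.36%), 178 in replicate 2 (3.28%) and 552 in replicate 3 (10.2%). Among combined sites it was held by 71.1%, 61.6% and 71.8% in replicates 1, 2 and 3. Replicate 3 has the longest tie at the top and also gave outside sites their largest count there. In all 3 lists at once, 73 outside sites stood at the highest score (1.35%, interval 1.07 to 1.69%), against 3524 combined sites (47.4%, interval 46.3 to 48.6%). No list gave the highest score to 4647 outside sites, or 85.6%.

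Few outside sites stood within the first 8430 places, the length of the combined list. In all 3 replicate lists at once, 148 outside sites did so (2.73%, interval 2.33 to 3.20%), against 4593 combined sites (61.8%). In at least 1 list, 1776 outside sites did so (32.7%), against 7282 combined sites (98.02%). The regions within the first 8430 places of replicates 1, 2 and 3 lay in outside sites in 9.02%, 9.62% and 11.4% of cases. The strongest place of any combined site over the 3 lists was never beyond 11709, while 1980 outside sites (36.5%) had all their places beyond that.

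The share of outside sites rose by degrees with place. How the combined list was derived is not given, so these shares cannot tell whether a single limit on another measure was used. Stretches were sorted by the median of their 3 best places. Places up to 5000 lie within the tie at the highest score of every list, where the order rests on the region number alone. Outside sites made up 41 of 2261 stretches with a median place of 1 to 2500 (1.81%, interval 1.34 to 2.45%). The share was 3.10% from 2501 to 5000, 11.6% from 5001 to 7500 and 36.5% from 7501 to 10000. It was 71.8% from 10001 to 12500, 89.8% from 12501 to 15000, 97.04% from 15001 to 20000 and 99.6% beyond. Most of the change thus fell between places 5001 and 15000, where both groups had over 100 stretches in each class.

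**Figure D2:**
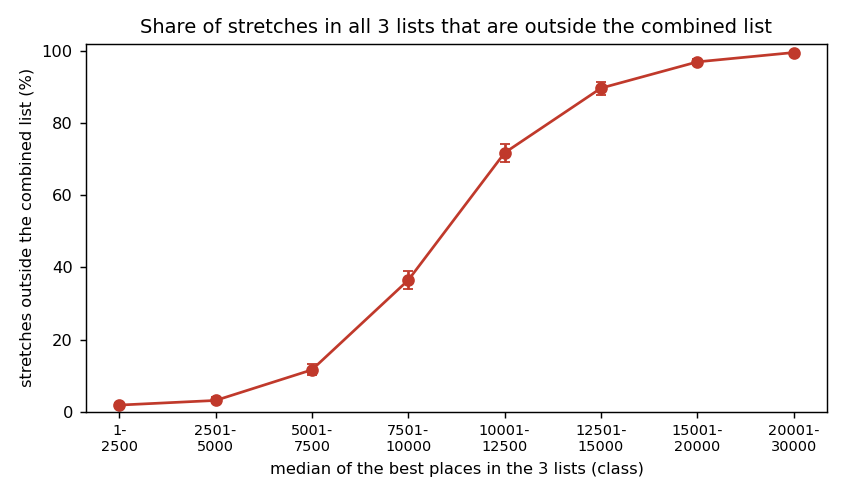
Share of stretches found in all 3 lists that were outside the combined list (y axis, percent), by the median of their 3 best places (x axis, 8 classes). Points are shares and bars are 95% Wilson intervals; the share is 1.81% at places 1 to 2500 and 99.6% beyond place 20000.

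The 3 lists agreed less on the order of outside sites. Across the 5426 outside sites the Spearman rho of best places was 0.24 between replicates 1 and 2, 0.25 between 1 and 3 and 0.23 between 2 and 3. Across the 7429 combined sites it was 0.73, 0.70 and 0.69 for the same pairs. The rule restricts the range of places in both groups, so these values describe the groups and do not compare the lists' precision. As a ratio, the worst place of a stretch was a median of 1.88 times its best in outside sites and 2.10 times in combined sites. A ratio of at least 5 was seen in 65 outside sites (1.20%) and 372 combined sites (5.01%). The length of the lists caps this ratio for stretches whose best place is already low in the list. The best place over the 3 lists had a lower quartile of 7703 in outside sites and an upper quartile of 4779 in combined sites. Outside sites thus mostly had less room for a high ratio, and the ratios do not compare how evenly the groups were ranked. No list stood out as the one that ranked outside sites lowest, with the worst place in replicate 1 for 33.4%, in replicate 2 for 32.2% and in replicate 3 for 34.4%. For combined sites the figures were 28.7%, 31.4% and 40.05%.

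A small set of outside sites stood high in every list by place, and these are called strong below. The limit used for this set, the first 3000 places of all 3 lists, was chosen after the values were seen. In every list more regions than that were tied at the highest score, so the set rests on the region number. The score does not set these sites apart from the 73 outside sites at the highest score of all 3 lists. The set held 26 outside sites against 1837 combined sites. By the rule for named sites, the 10 with the lowest worst place are given; 1 of them lies on chromosome I and is only counted. Chromosome V held 5 of the 10, X held 3 and II held 1.

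All 10 had the highest, tied score of every list, so their order rests on the region number alone. Most had a best region narrower than the median of its list (460, 476 and 444 bp in replicates 1, 2 and 3). Such widths were not compared with those at combined sites of like place. First was a site on V from 15464980 to 15465606, at places 130, 174 and 490 in replicates 1, 2 and 3. Its nearest combined region was 46049 bp away. Another on V, from 15085446 to 15085720, stood at places 233, 394 and 1060 and lay 1553 bp from a combined region. A weaker one nearby, from 15136714 to 15137189, had places 651, 1101 and 2602 and lay 49002 bp away. In each of these 3 sites, which fall within a single part of V, replicate 1 gave the best place and replicate 3 the worst.

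The other named sites on V differed in which list ranked them first. The site from 3315389 to 3315636 had places 725, 1056 and 412, and was 75433 bp from the nearest combined region. That from 11521409 to 11521852 had places 571, 607 and 1388, and that from 13818921 to 13819416 had 1181, 1622 and 1269. These last lay 9253 and 10162 bp from a combined region. Replicate 3 gave the best place to the first of these sites and the worst to the second.

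Chromosome II held a named site from 10303744 to 10303969, at places 808, 804 and 566, only 762 bp from a combined region. On X, the site from 9838030 to 9838473 had places 578, 814 and 1053 and lay 4386 bp away. The X site from 1909362 to 1909805 had places 974, 706 and 1164 and lay 20608 bp away. Another X site, from 11934807 to 11935296, had places 998, 1190 and 1623. Its neighbour at 1797 bp stood at place 20 of the combined list, while the neighbours of the other 2 X sites stood at 7653 and 951. The nearest combined regions of these X sites thus differed widely in place.

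**Figure D3:**
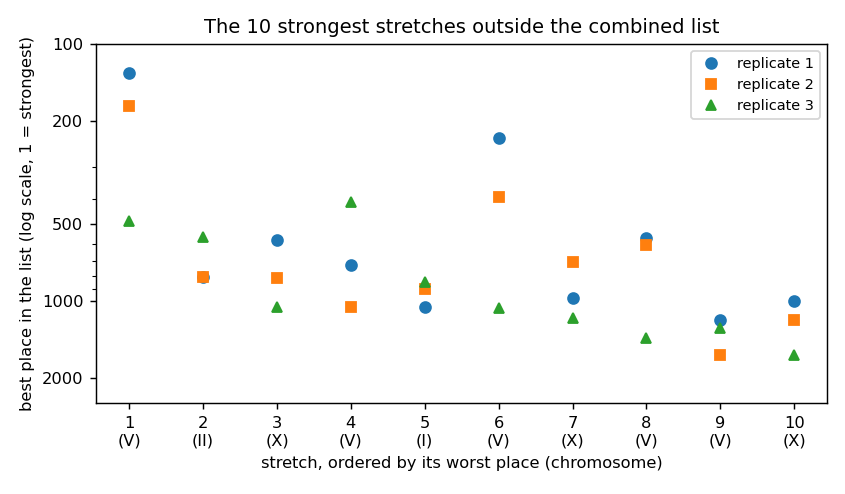
Best place in each replicate list (y axis, log scale, place 1 strongest) of the 10 outside sites with the lowest worst place (x axis, chromosome in brackets); circles, squares and triangles are replicates 1, 2 and 3. The first site is at places 130, 174 and 490, and all 10 are within the first 1623 places of every list.

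The 26 strong outside sites were compact, as were combined sites of the same places, and lay farther from the nearest combined region. All 26 had a base common to the best regions of the 3 lists, and the outermost midpoints of these regions were a median of 44.5 bp apart and at most 98.5 bp. Of the 1837 combined sites of the same places, 1821 had such a base (99.1%, interval 98.6 to 99.5%), and the median distance between outermost midpoints was 38 bp. A single region per list was seen in 20 of 26 (76.9%, interval 57.9 to 89.0%), against 815 of 1837 combined sites (44.4%, interval 42.1 to 46.6%). The nearest combined region was a median of 6224 bp away (quartiles 2430 and 13085 bp). For combined sites, the nearest combined region other than those they met was 1654 bp away (quartiles 766 and 4234 bp). It was over 5000 bp away for 15 of 26 strong outside sites (57.7%, interval 38.9 to 74.5%) and for 397 of 1837 combined sites (21.6%, interval 19.8 to 23.6%).

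Chromosome V held 9 of the 26 strong outside sites (34.6%, interval 19.4 to 53.8%), against 242 of 1837 combined sites of the same places (13.2%, interval 11.7 to 14.8%). V was singled out after the values were seen. Over all places it held 14.2% of outside sites and 14.8% of combined sites. Chromosomes II and X held 5 each, III and IV 3 each and I 1. Within the first 5000 places, V held 12 of 52 outside sites (23.08%, interval 13.7 to 36.1%) and 395 of 2939 combined sites (13.4%, interval 12.3 to 14.7%), and the intervals then overlapped. Leaving out a list loosens the requirement, and both groups then grew. Strong outside sites numbered 57 without replicate 1 (13 on V), 47 without replicate 2 (14 on V) and 33 without replicate 3 (11 on V). Combined sites of the same places numbered 2071, 2084 and 2197. Replicate 3 gave the worst place to 16 of the 26 outside sites and to 717 of the 1837 combined sites, more often than either other list in both.

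At most outside sites the 3 lists placed their regions less closely together. How the combined list was derived is not given, so agreement in position may be part of how combined sites entered it. The values below are descriptions of the groups under that limit. The outermost midpoints of the best regions were a median of 288 bp apart in outside sites (quartiles 145 and 504 bp), against 76.5 bp in combined sites (quartiles 38 and 151 bp). All pairs of lists showed this. The median distance between the best regions was 153 bp for replicates 1 and 2, 170 bp for 1 and 3 and 170.5 bp for 2 and 3 in outside sites, against 38.5, 46 and 47 bp in combined sites. Midpoints within 100 bp were found in 849 outside sites (15.6%) and 4541 combined sites (61.1%).

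Shared presence in the 3 lists did not always mean a shared base. In 565 outside sites (10.4%, interval 9.63 to 11.3%) no base was covered by all 3 lists, so the stretch was a chain of neighbours that touched only in pairs. This was so in 27 combined sites (0.36%, interval 0.25 to 0.53%). The best regions of the 3 lists shared no base in 1563 outside sites (28.8%), against 416 combined sites (5.60%). These 1563 outside sites were wider than the other 3863, with a median of 1319 bp against 758 bp, and held a mean of 6.01 regions against 4.03. Their median best places were 13998, 13695 and 14538 in replicates 1, 2 and 3, against 14793, 15124 and 14982 in the other outside sites.

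The looser placement was also seen among stretches of like place. With a median place of 7501 to 10000, outside sites had a median midpoint distance of 335 bp (n = 574) and combined sites 119 bp (n = 999). From 10001 to 12500 the values were 283.5 bp (n = 958) and 104 bp (n = 376). In the first 2500 places they were close, at 50 bp (n = 41) and 41 bp (n = 2220). Wide stretches can hold several regions from a list, so the best regions of different lists need not be the same summit. With only stretches of 1 region per list, the medians were 169 bp in 1816 outside sites and 49 bp in 2645 combined sites. Among those of median place 7501 to 12500, they were 136 bp (n = 323) and 79.5 bp (n = 458), so the contrast was smaller there but in the same direction. Place still differed within this class. The median best places in replicates 1, 2 and 3 were 10764, 11684 and 10420 in outside sites, against 8788.5, 9119.5 and 9225 in combined sites.

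**Figure D4:**
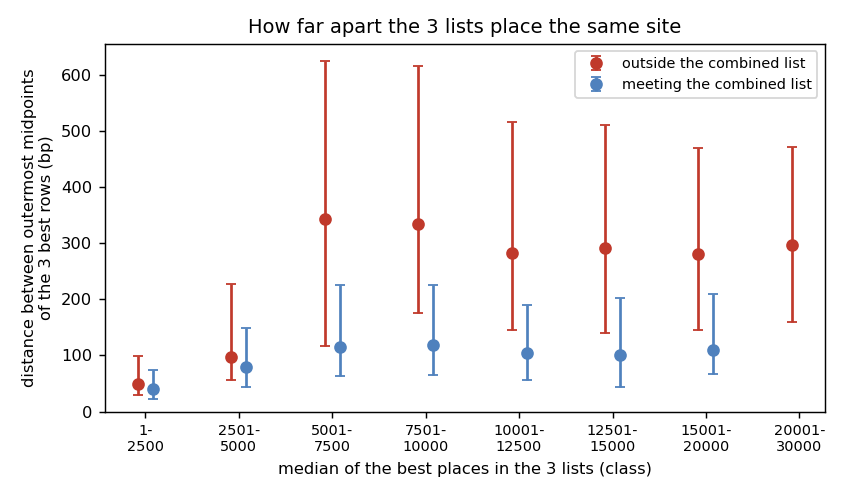
Distance between the outermost midpoints of the best region from each list (y axis, bp), by median place class (x axis), for outside sites (red) and combined sites (blue). Points are medians and bars are quartiles over stretches; groups under 20 stretches are not drawn. At places 7501 to 10000 the medians are 335 bp and 119 bp.

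Outside sites were wider as stretches, with a median of 865 bp (quartiles 693 and 1190 bp) against 679 bp (quartiles 530 and 810 bp) for combined sites. A stretch widens as the midpoints of its regions lie farther apart, so this contrast partly restates that of the midpoints. Both groups held a median of 4 regions. Outside stretches were widest, and held the most regions, at median places of 5001 to 10000. The median width was 1041 bp and the mean 5.79 regions at 5001 to 7500, and 1104.5 bp and 5.91 regions at 7501 to 10000. Combined sites of these classes had widths of 731 and 727 bp and means of 4.95 and 4.52 regions. Beyond place 20000 outside sites narrowed to 828 bp with a mean of 3.74 regions. The widest of all, on III from 6416235 to 6420555, was 4321 bp and held 17 regions, with best places 6170, 5256 and 7176, and lay 307 bp from a combined region.

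Within 500 bp, outside sites had a combined region about as often as combined sites had another one, while their median distance was longer. The median distance from an outside site to the nearest combined region was 2013 bp (quartiles 674 and 5158 bp). From a combined site to the nearest combined region that it did not meet, it was 1555 bp (quartiles 667 and 4069 bp). A combined region within 500 bp was found for 1007 outside sites (18.6%, interval 17.5 to 19.6%) and for 1361 combined sites (18.3%, interval 17.5 to 19.2%). Within 1000 bp the shares were 33.2% and 37.06%, and 25.8% of outside sites and 20.6% of combined sites had none within 5000 bp. The nearest combined regions had a median combined place of 4143.5 for outside sites and 4286 for combined sites. Both medians lie among the 5414 combined regions tied at the highest score, and place followed the score less closely in that list (Spearman rho across regions -0.85).

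Distance varied with place in outside sites. The median was 6050 bp at median places 1 to 2500 (n = 41) and 2881 bp at 2501 to 5000 (n = 64), against 1670 and 1415 bp for combined sites of those classes. It was shortest at 7501 to 10000, with 1238 bp (n = 574) against 1695 bp in combined sites (n = 999). It was 1793.5 bp at 10001 to 12500 against 1810.5 bp, and 2666 bp in outside sites beyond 20000. Outside sites of middling place were thus those closest to a combined region, and the same classes held the widest stretches.

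At the edge of the rule, the outside site nearest to a combined region lay on V from 14498157 to 14499126, with 2 bp between them. Its places were 29353, 14456 and 4309 in replicates 1, 2 and 3. The next, on II from 8128205 to 8128680, was 15 bp away, at places 10434, 22756 and 5390. On the other side, the combined site with the shortest overlap was on chromosome I, with 32 bp. On X from 6254198 to 6254932 the overlap was 48 bp, and places were 5890, 10970 and 3417. Sites so close to the edge were few, with 37 outside sites within 100 bp of a combined region (0.68%).

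At the far end, 9 outside sites were more than 100000 bp from any combined region, against 11 combined sites whose next combined region was that far. The most distant was on II from 1819860 to 1820352, at 299521 bp, with places 2849, 2502 and 3708. On V, 3 such sites lay side by side between 3979730 and 3985710, at 157466 to 161632 bp, with the best place of any list at 5436. Another on II from 12541451 to 12542149 had places 4069, 4478 and 5782, at 115290 bp. A further site on II, from 2055083 to 2056130, had places 17508, 9471 and 10896, at 139531 bp. The sites on II thus differed in place and in how far the lists ranked them alike.

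Outside sites were spread over all 6 chromosomes. Per Mb of chromosome, III had the most with 71.7 (988 sites), followed by I with 60.5, II with 59.2, X with 55.9, IV with 49.4 and V with 36.8 (769 sites). Combined sites had 95.3 per Mb on III, 82.04 on I, 72.7 on II, 89.2 on X, 62.5 on IV and 52.5 on V. The order of chromosomes was the same in both groups apart from X, which was 4th among outside sites and 2nd among combined sites.

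The X chromosome held a smaller part of the outside sites. It had 991 of 5426 (18.3%, interval 17.3 to 19.3%), against 1580 of 7429 combined sites (21.3%, interval 20.4 to 22.2%). Put the other way, outside sites were 38.5% of the stretches on X that were in all 3 lists (interval 36.7 to 40.4%) and 43.1% of those on autosomes (interval 42.2 to 44.1%). Among single autosomes the share was 41.2% on V, 42.5% on I, 42.9% on III, 44.1% on IV and 44.9% on II. The intervals of V, 39.0 to 43.5%, and of I, 40.4 to 44.6%, overlapped that of X. With stretches of like place, the contrast on X was not uniform. X held 22.0% of outside sites against 22.3% of combined sites at median places 1 to 2500, 21.9% against 19.2% at 2501 to 5000 and 18.3% against 21.1% at 5001 to 7500. It held 17.9% against 22.4% at 7501 to 10000, and 18.5% (interval 16.1 to 21.06%) against 25.3% (interval 21.1 to 29.9%) at 10001 to 12500. At 12501 to 15000 the shares were 18.3% and 18.6%, and at 15001 to 20000 they were 19.8% and 13.04%. X was thus lower in outside sites in 5 of these 7 classes, and the intervals were apart only at 10001 to 12500.

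Worm autosomes have a gene-rich central part and outer arms with more repeats and more recombination, whereas X is more uniform. Each chromosome was split here into 3 equal parts. The central part held 1591 of 4435 autosomal outside sites (35.9%, interval 34.5 to 37.3%), close to an even spread, against 2570 of 5849 combined sites (43.9%, interval 42.7 to 45.2%). The share was lower in outside sites on each of the 5 autosomes, with 34.9% against 43.7% on I, 37.4% against 45.9% on II and 32.6% against 40.2% on III. It was 36.7% against 39.9% on IV, where the intervals overlapped, and 38.5% against 50.7% on V, the widest gap. On X the shares were 34.6% and 34.3%.

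The central share of outside sites varied with their place. On autosomes it was 37.5% at median places 1 to 2500 (12 of 32) and 36% at 2501 to 5000 (18 of 50), both with wide intervals. It was 44.7% at 5001 to 7500, 41.6% at 7501 to 10000, 38.9% at 10001 to 12500, 36.5% at 12501 to 15000, 34.5% at 15001 to 20000 and 29.8% beyond (interval 26.9 to 32.9%, n = 903). Combined sites had 43.9% at 1 to 2500, 44.7% at 2501 to 5000, 45.1% at 5001 to 7500 and 40.1% at 7501 to 10000. They had 43.06% at 10001 to 12500, 47.8% at 12501 to 15000 and 45.0% at 15001 to 20000 (n = 40). The share was lower in outside sites in 6 of these 7 classes and higher at 7501 to 10000. The intervals of outside and combined sites overlapped in all 7, so no single class set the groups apart. The part that place plays in the lower central share of outside sites was not tested.

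**Figure D5:**
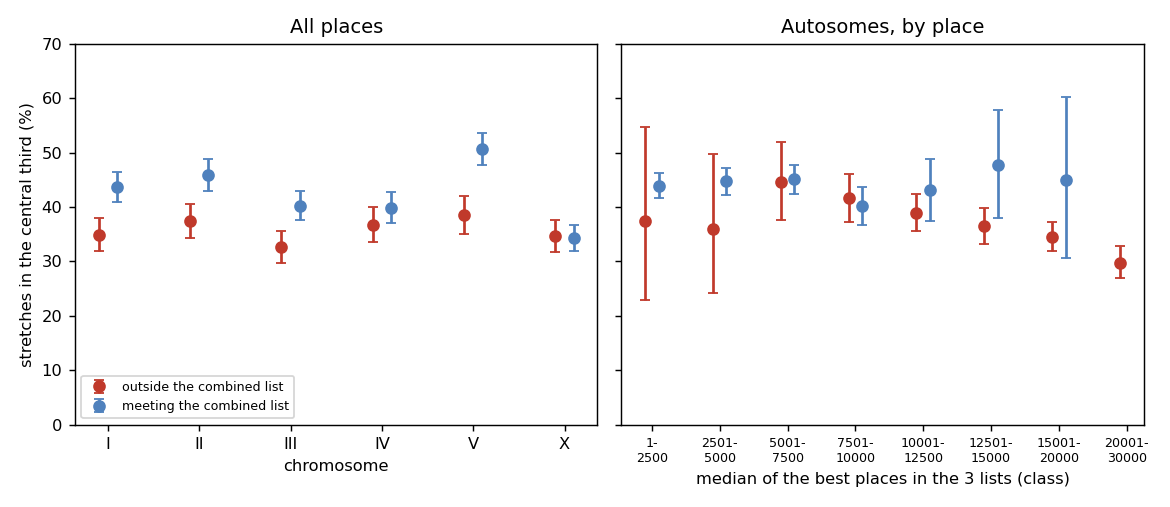
Share of stretches whose midpoint lies in the central part of 3 equal parts of the chromosome (y axis, percent), by chromosome (left) and, for autosomes, by median place class (right), for outside sites (red) and combined sites (blue). Points are shares and bars are 95% Wilson intervals; groups under 20 stretches are not drawn on the right. On V the shares are 38.5% and 50.7%, and at places 7501 to 10000 they are 41.6% and 40.1%.

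Along the chromosomes outside and combined sites were interleaved. Taken in order, the stretches in all 3 lists formed 3002 runs of outside sites with no combined site among them, and as many runs of combined sites. Alone in their run stood 1727 outside sites (31.8%) and 1263 combined sites (17.0%), the larger group. Sites of a larger group are less often alone by group size, and these values were not compared with a random order. The longest run held 13 outside sites, on V from 20012467 to 20126216, against 17 combined sites in their longest run. The next run of outside sites held 11, on IV from 12848429 to 13009753. In windows of 50000 bp there was a mean of 2.70 outside sites and a highest count of 11, reached in 6 windows, which held 3 to 9 combined sites each. Only 237 outside sites lay in the 125 windows that held an outside site and no combined region midpoint. The fullest of these windows, with 7 outside sites each, were both on V, from 19400001 to 19450000 and from 20050001 to 20100000.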

How the data were processed

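The deposited files were the authors' region lists, 1 for each of 3 ChIP replicates and 1 combined list. Per the file headers they are on WormBase build WS220, and per their source column regions came from SPP with IDR. No aligner, version or threshold is given in the sources used here. The deposited score has no stated unit and is tied at its highest value, so the authors' region number served as the order. Mitochondrial regions were left out. Distances count the bases between intervals. The highest end coordinate of any list stood for chromosome length. Analyses used Python 3.11.15, numpy 2.4.6, pandas 2.3.3, scipy 1.17.1 and matplotlib 3.10.9, and the code was tested on simulated lists. The members and comparisons were chosen with earlier results of these data known. No test across sites was run, because the lists share libraries. Named sites were the 10 with the lowest worst place, those nearest to either side of the rule, the widest, the longest run and the fullest windows. The most distant sites, the third site at 15 Mb on V and the limits of 3000 and 5000 places were chosen after their values were seen.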

Additional observations from a re-analysis of the deposited data

Results flagged for a closer look

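Mitochondrial DNA stands outside the rule, and the combined list held 0 regions there. The 3 replicate lists, which are each longer than the combined list, held 70 regions on it in all. These were listed for a closer look because they lie in data that no comparison used, and not by a test against the combined list. They merged into 4 stretches, of which 3 held a region from each list, and the best placed stood at places 65, 153 and 5 in replicates 1, 2 and 3.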

How the results depend on the processing

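Outside sites had lower-ranked places, a smaller share on X, a smaller central share on autosomes and a longer median distance to combined regions than combined sites under each of the 8 alternatives. The values themselves moved. Leaving out a replicate, with stretches merged from the other 2 lists, gave 7407 to 8472 outside sites, 49.7 to 52.6% of shared stretches, a mean median place of 15599 to 16088, an X share of 17.7 to 18.7%, a central share of 34.2 to 37.2% and a median distance of 2159 to 2217 bp. It gave 33 to 57 strong outside sites, 11 to 14 of them on V. With combined regions within 500 bp counted as met, the share was 34.4%, the place 14864, the central share 34.2% and the distance 2831 bp. With a base common to all 3 lists, the share was 39.6% and the place 14417. Using places 1 to 15000 only left 968 outside sites, 12.9% of shared stretches, with a place of 9653, an X share of 16.7%, a central share of 42.3% (interval 38.9 to 45.7%) against 44.1% in combined sites, and a distance of 1720 bp (interval of the median 1561 to 1905 bp) against 1579 bp. The last 2 intervals hold the values of combined sites. This alternative removes the weakest regions by construction. With 200 bp around midpoints the share was 35.6%, the place 14887, the central share 37.4% and the distance 2184 bp. Requiring an overlap of 50% changed the count to 5429. The analysis of strong sites was added after the data were seen. No paired analysis was possible because ChIP and input, the groups numbered alike in the labels, were not compared; places of outside and combined sites are given list by list instead. Depth is unknown, so its effect on weak regions could not be examined.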
